A study of Mus musculus with 8 samples.

Results

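Livers of male C57BL/6J mice that ate a high-fat diet and drank arsenite were compared with livers of mice on a low-fat diet and plain water. The comparison takes its groups from the sample titles and uses the deposited log2 signals of every transcript cluster, the set of probes that stands for a gene on the array, with a gene symbol. It rests on 4 of the 8 arrays of the series, 2 for the combined exposure (HFD+As) and 2 for the low-fat control (LFD). Of 35556 clusters 21789 had 1 symbol, which gave 19938 genes, and the 11963 genes with the highest mean over all 8 arrays were tested. In LFD 13% of the calories came from fat and the water was deionized. In HFD+As 42% of the calories came from fat, and the deionized water held sodium arsenite that gave 3 mg of inorganic arsenic in a litre. The single exposures, arsenite on the low-fat diet (LFD+As) and the high-fat diet with plain water (HFD), were measured in the same way and are given beside the results where they bear on them. Exposure lasted 10 weeks by the protocols and 90 days by the source label, which could not be reconciled. Each group had 10 mice, whose RNA was extracted one by one and then pooled, so that 1 array holds 5 mice. The p-values therefore measure the spread between pools and not between mice.

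The liver makes fatty acids from sugar and acetate under the transcription factors SREBP1c and ChREBP, exports lipid and plasma proteins, breaks down amino acids and drugs, and methylates inorganic arsenic for excretion. Arsenite binds the thiol groups of proteins, and metallothioneins, heat shock proteins and the targets of the factor NRF2 are the genes best known to respond to it. High-fat feeding loads the liver with lipid and is known to act on lipid synthesis, insulin signalling and inflammatory genes. The hepatocyte markers were bright in all arrays, with albumin (Alb) at 14.46 and 14.48 in the LFD pools, 14.44 and 14.44 in the LFD+As pools, 14.46 and 14.47 in the HFD pools and 14.44 and 14.45 in the HFD+As pools, so the tissue label had its defining genes. Medians of the 8 arrays lay between 7.08 and 7.18. The median absolute difference between the 2 pools of a group was 0.149 in LFD and 0.139 in HFD+As.

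Some of the metallothionein, heat shock and lipid genes named below were searched for known response element cores. The 250 bases before the RefSeq start (GRCm38.p6) are shown for those with a match. The searched letters were TGCACNC or TGCGCNC for the metal response element, GAANNTTC for the heat shock element, TCACNCCAC for the sterol regulatory element and CACGTG for the E-box, each on both strands. Capitals mark the matches to the element named for each gene. Mt2 (chr8:94172368-94172617, plus strand) had 3 metal response cores, which begin at positions -223, -128 and -50 from the start, and Mt1 (chr8:94178839-94179088, plus strand) had 1. The small heat shock protein gene Hspb1 (chr5:135887669-135887918, plus strand) had 2 heat shock cores and the chaperonin gene Hspe1 (chr1:55087898-55088147, plus strand) had 1. At Mlxipl, the gene of ChREBP, the start at chr5:135089640-135089889 (plus strand) had an E-box and the start at chr5:135106641-135106890 (plus strand) had a sterol core.
Mt2: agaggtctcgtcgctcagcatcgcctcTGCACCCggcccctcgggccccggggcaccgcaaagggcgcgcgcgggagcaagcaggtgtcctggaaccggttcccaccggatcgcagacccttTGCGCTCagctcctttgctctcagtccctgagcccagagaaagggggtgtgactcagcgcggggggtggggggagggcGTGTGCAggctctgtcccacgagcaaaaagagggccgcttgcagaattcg
Mt1: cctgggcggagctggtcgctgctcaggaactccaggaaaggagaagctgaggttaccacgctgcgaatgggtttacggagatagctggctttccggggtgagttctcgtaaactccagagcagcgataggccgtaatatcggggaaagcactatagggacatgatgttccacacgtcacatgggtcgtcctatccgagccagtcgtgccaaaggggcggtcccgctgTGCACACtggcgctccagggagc
Hspb1: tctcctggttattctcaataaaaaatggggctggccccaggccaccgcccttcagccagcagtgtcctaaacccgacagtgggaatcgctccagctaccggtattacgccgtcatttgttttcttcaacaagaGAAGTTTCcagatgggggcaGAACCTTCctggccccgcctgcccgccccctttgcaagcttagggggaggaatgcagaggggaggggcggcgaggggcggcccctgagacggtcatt
Hspe1: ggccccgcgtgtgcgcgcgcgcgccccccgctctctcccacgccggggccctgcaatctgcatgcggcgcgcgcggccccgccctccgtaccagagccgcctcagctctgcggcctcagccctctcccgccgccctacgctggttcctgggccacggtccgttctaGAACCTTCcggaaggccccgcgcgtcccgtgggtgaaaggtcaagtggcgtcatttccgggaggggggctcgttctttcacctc
Mlxipl E-box start: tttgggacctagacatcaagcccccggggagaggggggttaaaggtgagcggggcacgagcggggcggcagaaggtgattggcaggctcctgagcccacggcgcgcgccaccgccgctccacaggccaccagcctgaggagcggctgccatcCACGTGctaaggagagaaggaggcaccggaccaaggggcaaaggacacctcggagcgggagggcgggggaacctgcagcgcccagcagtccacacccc
Mlxipl sterol core start: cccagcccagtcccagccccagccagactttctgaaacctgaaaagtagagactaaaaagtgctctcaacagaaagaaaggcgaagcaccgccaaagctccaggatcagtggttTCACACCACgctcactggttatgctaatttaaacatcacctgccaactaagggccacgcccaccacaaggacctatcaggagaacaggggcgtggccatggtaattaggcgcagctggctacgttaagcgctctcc
Among 32851 RefSeq promoters of the same length, 21.4% held at least 1 metal response core and 1.26% at least 3, 6.69% held at least 1 heat shock core and 0.228% at least 2, 1.05% held a sterol core and 6.02% an E-box. In Acss2, Acacb and Hamp none of these letters were found in the window. No search result is given here for other genes of these lists, such as Srebf1, Fasn, Scd1, Scd2 and Hsp90aa1. A match describes letters only. Bases after the RefSeq start were not searched, so each count is for the printed window and not for a whole promoter.

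Signals differed between HFD+As and LFD for many genes, and more of them were lower than higher. With limma, 1909 of the 11963 genes (16.0%) had an adjusted p under 0.05 and are named called here: 430 were higher (3.59%) and 1479 lower (12.4%) in HFD+As, while 3690 genes had an unadjusted p under 0.05. The differences were mostly small. The median size of a called difference was 0.55 log2 units (quartiles 0.46 and 0.66), 21 genes rose and 44 fell by at least 2-fold, and the median over all genes tested was -0.10. The arrays of HFD+As and LFD did not overlap for all 1909 called genes, as was the case for 54.9% of all genes tested (13.5% higher, 41.4% lower). In a bulk liver sample, fewer cells of a type and less RNA per cell cannot be told apart.

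Single pools weighed heavily on these counts. With LFD replicate 1 left out 357 genes were called, and with LFD replicate 2 left out 776. Leaving out HFD+As replicate 1 gave 206 and leaving out HFD+As replicate 2 gave 1638. In these fits the spread comes from the groups that keep 2 arrays, and the remaining array is assumed to vary like theirs. Of the 1909 calls 332, 732, 194 and 1288 were kept. With no filter on dim genes 1084 genes were called and with median centring 1013. A core of 126 genes (1.05%), 35 higher (0.293%) and 91 lower (0.761%), was called with all arrays, with each of the 8 arrays left out in turn and with the trend over gene span removed. These genes are said below to hold in every fit, and they are named first. A called gene that is not said to hold in every fit lost its call in at least 1 of these fits. The other alternatives, such as an intensity trend with robust variances, are not part of this rule.

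**Figure D1:**
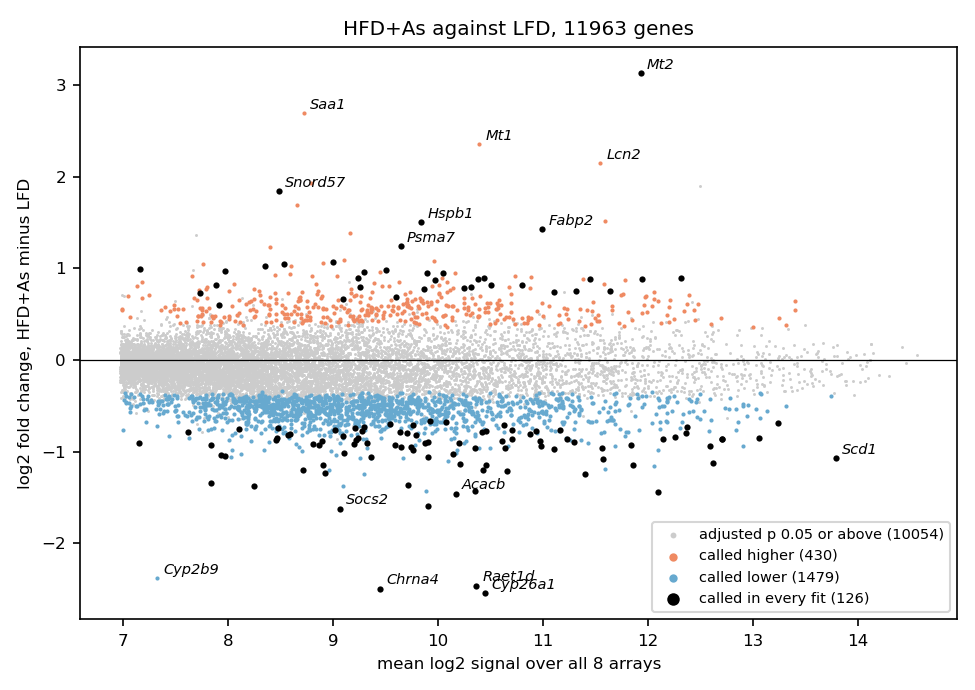
Log2 fold change of HFD+As over LFD (vertical axis) against the mean log2 signal of the 8 arrays (horizontal axis) for 11963 genes, 1 point per gene. Called genes are coloured by direction, and the 126 genes that hold in every fit are black; Mt2 is the highest of them and Cyp26a1 the lowest.

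Among the 15 largest rises and 15 largest falls that hold in every fit, Mt2 of the metal response, the small nucleolar RNA Snord57 and Hspb1 of the heat response led the rises, and Cyp26a1, Chrna4 and Raet1d the falls. Cyp26a1 encodes the P450 that clears retinoic acid. Its signals were 11.99 and 11.79 in LFD and 9.50 and 9.19 in HFD+As, and the gene fell by 2.54 (SE 0.26, adjusted p = 0.000358). It was low with the diet alone as well: the other groups had 10.40 and 11.54 in the LFD+As pools and 9.72 and 9.49 in the HFD pools. Chrna4, which encodes a subunit of the nicotinic acetylcholine receptor, had 10.18 and 10.35 in LFD and 7.68 and 7.85 in HFD+As and fell by 2.50 (SE 0.23, adjusted p = 0.000258). In the other groups its signals were 9.20 and 10.21 in the LFD+As pools and 10.02 and 10.13 in the HFD pools, so both HFD+As pools lay below every other array. Raet1d, a ligand gene of the natural killer receptor NKG2D, had 11.59 and 11.49 in LFD and 9.26 and 8.90 in HFD+As and fell by 2.46 (SE 0.22, adjusted p = 0.000258). Its signals were 10.52 and 11.33 in the LFD+As pools and 10.10 and 9.72 in the HFD pools, so that the HFD pools lay between those of LFD and HFD+As. Camk1d, a calcium and calmodulin-dependent kinase gene, had 10.57 and 10.40 in LFD and 8.73 and 9.06 in HFD+As and fell by 1.59 (SE 0.15, adjusted p = 0.000258), again with both HFD+As pools below the other 6 arrays.

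Further genes of this set have roles outside the lists below. The co-regulator gene Zmiz1 fell by 1.25, the nucleotide receptor gene P2ry4 by 1.24 and Robo1, which encodes a receptor for Slit proteins, by 1.20. Tomm20, a receptor of the protein import pore of mitochondria, had 9.31 and 8.95 in LFD and 10.17 and 10.04 in HFD+As and rose by 0.98 (SE 0.15, adjusted p = 0.00366). Tomm20 had 2 clusters on the array, and these values are those of the brighter one. Whether that cluster lies at the gene itself was not checked, and the other cluster is not given. The serpin gene Serpina12, which encodes vaspin, rose by 0.97, and Rprl2, an RNase P RNA-like gene, rose by 0.95.

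**Figure D2:**
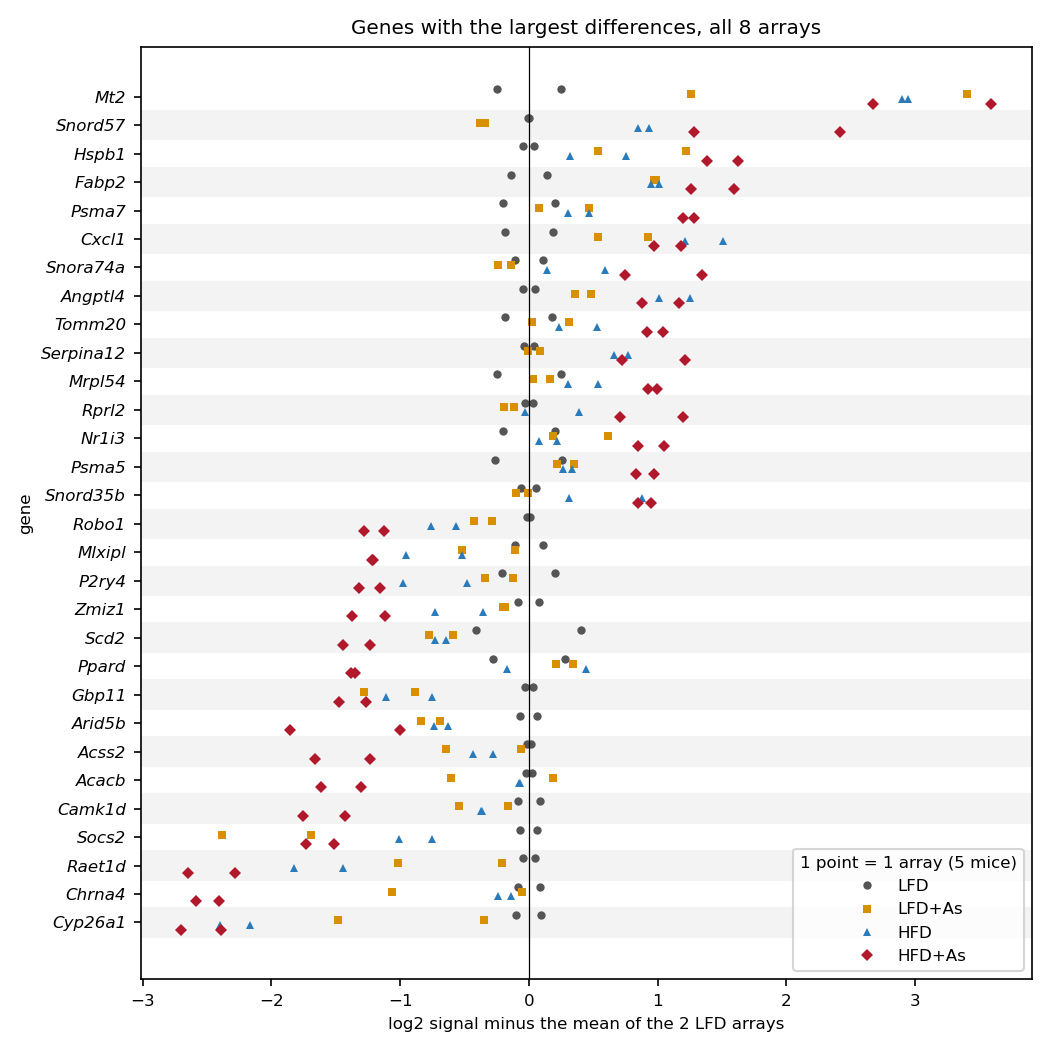
Log2 signal of each of the 8 arrays minus the mean of the 2 LFD arrays (horizontal axis) for the 15 largest rises and the 15 largest falls that hold in every fit (vertical axis), 1 point per array of 5 pooled mice. The HFD+As points (diamonds) lie clear of the LFD points (circles) in every row, as in all called genes, and for Mt2, Cxcl1, Angptl4, Serpina12, Snord35b, Cyp26a1, Socs2 and Gbp11 at least 1 array of a single exposure lies as far out as the nearer HFD+As array.

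The difference followed the genomic span of the genes, from first to last base with introns. Short genes were on the whole higher in HFD+As and long genes lower. In the 10% of genes with the shortest spans (median 2.02 kb) the median log2 fold change was 0.06, and 11.5% were called higher and 1.67% lower. In the 10% with the longest spans (median 176 kb) it was -0.27, with 0.167% higher and 30.4% lower. The rank correlation of fold change with span was -0.413 across 11958 genes, which are not independent. By array, the rank correlation with span of a gene's deviation from its mean was 0.34 and 0.14 in LFD and -0.45 and -0.29 in HFD+As. It was 0.22 and 0.35 in the LFD+As pools and 0.25 and -0.14 in the HFD pools. HFD replicate 2 thus had the same sign as both HFD+As pools. Called genes that were higher had a median span of 5.83 kb, those lower 51.3 kb and genes not called 19.7 kb. With this trend removed from each array, 1132 genes were called (9.46%), 543 higher (4.54%) and 589 lower (4.92%), and 901 of the 1909 calls were kept. The labels give no RNA quality for the pools, and the part of RNA quality in this trend was not tested. Counts with the trend removed are therefore given with the gene lists, whose counts stand against 3.59% higher and 12.4% lower over all genes, and against 4.54% and 4.92% with the trend removed. The lists were chosen with earlier results of these data known, so these shares describe the lists and do not test them.

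**Figure D3:**
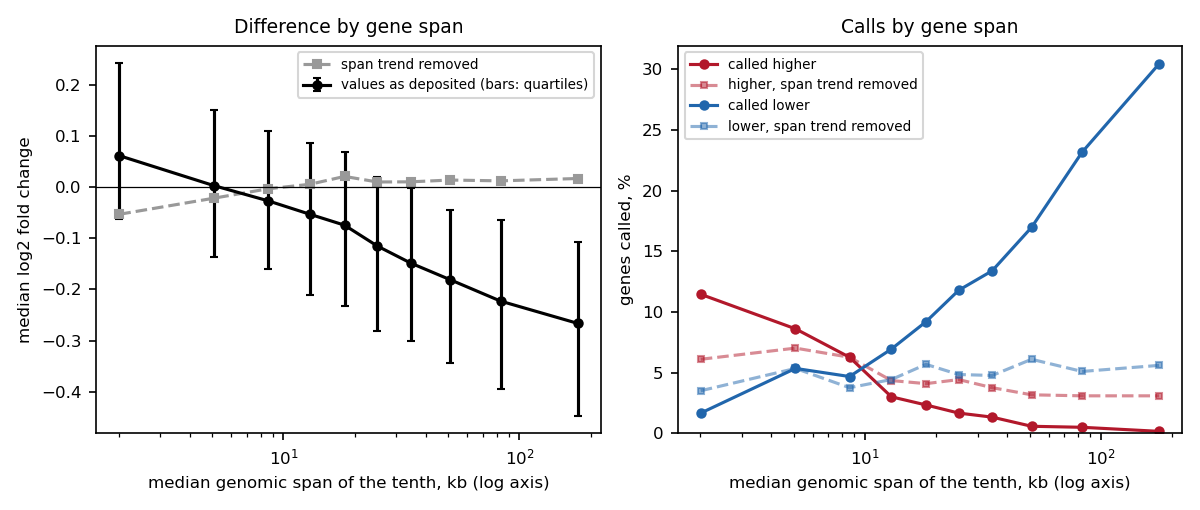
Left, median log2 fold change of HFD+As over LFD with quartiles (vertical axis) in 10 equal bins of the genes by genomic span (horizontal axis, kb, log axis), as deposited and with the span trend removed. Right, percent of genes called higher or lower in each bin; the lower calls run from 1.67% to 30.4% as deposited.

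Both metallothionein genes, whose products bind zinc and cadmium through cysteines, were among the most raised genes. Mt2 had 10.09 and 9.59 in LFD and 13.43 and 12.51 in HFD+As, which gave a rise of 3.13 (SE 0.48, adjusted p = 0.00333), about 8.78-fold, and holds in every fit. Mt1 had 9.02 and 8.65 in LFD and 11.47 and 10.91 in HFD+As and rose by 2.35 (SE 0.39, adjusted p = 0.00428). The HFD pools reached 12.74 and 12.78 for Mt2, inside the HFD+As range, and the LFD+As pools were far apart at 13.24 and 11.09. The remaining 7 zinc genes tested, which encode zinc transporters and the metal-sensing factor MTF1, were all at or below -0.03 and none was called. Of the 15 iron genes, Hamp, which encodes the iron hormone hepcidin, had 10.73 and 11.14 in LFD and 13.04 and 11.87 in HFD+As and rose by 1.52, and Smad7, an inhibitor of BMP signalling, fell by 0.45. The calls of Hamp (1.31) and Smad7 (-0.54) were lost without LFD replicate 1, and that of Smad7 (-0.36) without LFD replicate 2. Mt1 (2.07), Hamp (0.93) and Smad7 (-0.53) lost their calls without HFD+As replicate 1, as did Smad7 (-0.36) without HFD+As replicate 2. Smad7 (-0.31) lost its call with the span trend removed. Metal handling members called numbered 2 higher and 0 lower with LFD replicate 1 left out, 3 and 0 with LFD replicate 2, 1 and 0 with HFD+As replicate 1, 3 and 1 with HFD+As replicate 2, and 3 and 0 with the span trend removed. An intensity trend with robust variances gave 0 higher and 1 lower, so Mt2 lost its call in that fit. Mt1 and Mt2 probes may bind each other's transcripts.

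Heat shock genes were raised as 6 of 22 tested, with 1 lower and a median of 0.23. Hspb1 had 9.15 and 9.06 in LFD and 10.74 and 10.49 in HFD+As and rose by 1.51 (SE 0.20, adjusted p = 0.00191), holding in every fit. Both LFD+As pools (10.33 and 9.65) and both HFD pools (9.87 and 9.43) lay between the LFD and HFD+As pools. The array had 2 clusters for Hspb1, and the values are those of the brighter one. Whether this cluster lies at the Hspb1 gene itself was not checked, and the other cluster is not given. Among the chaperones, Hsp90aa1 rose by 0.69, Hspe1 by 0.67 and Hsph1 by 0.59. The cochaperone genes Dnajc12 and Ahsa1 rose by 0.92 and 0.44, and Dnajb4 fell by 0.42. Other chaperones did not pass, with the constitutive Hspa8 at -0.16, Hspd1 at 0.05 and the inducible Hspa1a at 0.23. The calls of Dnajc12 (1.03), Hsp90aa1 (0.55) and Hspe1 (0.70) were lost without LFD replicate 1, and those of Dnajc12 (0.80) and Hspe1 (0.65) without LFD replicate 2. Dnajc12 (1.16) and Hsp90aa1 (0.80) lost their calls without HFD+As replicate 1, as did Dnajc12 (0.67), Hsp90aa1 (0.58) and Hspe1 (0.49) without HFD+As replicate 2. Heat shock members called higher numbered 1 and 2 with LFD replicate 1 or 2 left out, 3 and 1 with HFD+As replicate 1 or 2 left out, and 7 with the span trend removed.

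Of 39 oxidant defence genes 6 were called higher, against 3.59% of all genes (median -0.06). The 4 called lower were a share below the 12.4% of all genes. Median centring gave 2 higher and 2 lower. Gpx4, the peroxidase that reduces lipid peroxides in membranes, had 10.55 and 10.39 in LFD and 11.18 and 11.41 in HFD+As and rose by 0.82 (SE 0.14, adjusted p = 0.00543), and the glutathione transferase gene Gstt3 had 10.37 and 10.15 in LFD and 9.15 and 9.47 in HFD+As and fell by 0.95 (SE 0.14, adjusted p = 0.00298); both hold in every fit. Of the NRF2 targets, Hmox1, the heme oxygenase gene, rose by 0.59, the sulfiredoxin gene Srxn1 by 0.61 and the quinone reductase gene Nqo1 by 0.92, while Osgin1 fell by 0.45. The 2 HFD+As pools disagreed on Nqo1, at 7.83 and 9.03, and the lower of them was next to LFD replicate 1 at 7.82. Nfe2l2, the gene of NRF2 itself, fell by 0.36. The transferase genes Gstm6 and Mgst3 changed by -0.91 and 0.59, and the peroxiredoxin gene Prdx1 rose by 0.36. The calls of Hmox1 (0.64), Nqo1 (1.23) and Gstm6 (-0.80) were lost without LFD replicate 1, and those of Hmox1 (0.53) and Nqo1 (0.61) without LFD replicate 2. Hmox1 (0.55) and Gstm6 (-0.88) lost their calls without HFD+As replicate 1, as did Nqo1 (0.32) without HFD+As replicate 2. Nqo1 (0.99) lost its call with the span trend removed. Oxidant defence members called numbered 2 higher and 1 lower with LFD replicate 1 left out, 1 and 2 with LFD replicate 2, 2 and 1 with HFD+As replicate 1, 2 and 2 with HFD+As replicate 2, and 5 and 2 with the span trend removed.

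The unfolded protein response had 3 of 31 members higher and 3 lower (median 0.06), against 3.59% and 12.4% of all genes. None of the falls was called with the span trend removed. The risers were small proteins of the endoplasmic reticulum. Creld2 had 11.36 and 11.25 in LFD and 12.15 and 12.25 in HFD+As and rose by 0.89 (SE 0.13, adjusted p = 0.00333), holding in every fit, and Sdf2l1 and Manf rose by 0.87 and 0.59. Creld2 was as high in the single exposures, with 12.30 and 12.00 in the LFD+As pools and 12.25 and 12.00 in the HFD pools. The sensor gene Ern1 fell by 0.76, and Sesn2 and the serine synthesis gene Phgdh, both targets of ATF4, fell by 0.50 and 0.39. The main chaperone Hspa5 stood at 0.05, Ddit3 at 0.21 and Atf4 at 0.06, none of which passed. The calls of Sdf2l1 (0.92) and Manf (0.61) were lost without LFD replicate 1, and those of Sdf2l1 (0.82) and Ern1 (-0.59) without LFD replicate 2. Sdf2l1 (0.93), Manf (0.53) and Ern1 (-0.57) lost their calls without HFD+As replicate 1, as did Ern1 (-0.51) with the span trend removed. Members of this response called numbered 1 higher and 1 lower with LFD replicate 1 left out, 2 and 0 with LFD replicate 2, 1 and 0 with HFD+As replicate 1, 3 and 2 with HFD+As replicate 2, and 4 and 0 with the span trend removed.

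Proteasome subunits were higher together, with 12 of 36 called higher, 0 called lower and 34 of 36 above 0 (median 0.35, against -0.10 for all genes and 3.59% called higher). The proteasome degrades ubiquitin-tagged proteins. The core particle gene Psma7 had 9.37 and 8.97 in LFD and 10.37 and 10.45 in HFD+As and rose by 1.24 (SE 0.16, adjusted p = 0.00155). Psma5 had 9.13 and 8.61 in LFD and 9.70 and 9.84 in HFD+As and rose by 0.90 (SE 0.15, adjusted p = 0.00511), and Psmb6 had 10.27 and 10.13 in LFD and 10.94 and 11.11 in HFD+As and rose by 0.82 (SE 0.14, adjusted p = 0.00436). These 3 genes hold in every fit, and in each of them both HFD+As pools were above all 6 other arrays. Psmb1 rose by 0.74, and the regulatory particle genes Psmd13, Psmc6 and Psmc3 by 0.65, 0.58 and 0.56. The call of Psmb1 (0.69) was lost without HFD+As replicate 1. Proteasome members called higher numbered 5 and 4 with LFD replicate 1 or 2 left out, 3 and 5 with HFD+As replicate 1 or 2 left out, and 12 with the span trend removed.

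Genes that make fatty acids fell in all 3 parts of the pathway. Of the 24 tested, 18 were called lower, against 12.4% of all genes, and 1 was higher; the median was -0.75, and 10 of the falls hold in every fit. The regulators come first. Mlxipl had 11.12 and 11.34 in LFD and 10.01 and 10.02 in HFD+As and fell by 1.22 (SE 0.16, adjusted p = 0.0021), and Srebf1, the gene of SREBP1, had 11.01 and 10.96 in LFD and 9.79 and 9.90 in HFD+As and fell by 1.14 (SE 0.14, adjusted p = 0.00125). Insig1 and Scap, whose products hold SREBP in the endoplasmic reticulum or escort it out, fell by 0.73 and 0.71. Nr1h3, the gene of the oxysterol receptor LXR-alpha, was the exception and rose by 0.56.

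Supply of acetyl-CoA and malonyl-CoA had 4 of 6 genes lower. Acss2, which makes acetyl-CoA from acetate, had 12.62 and 12.65 in LFD and 10.97 and 11.41 in HFD+As and fell by 1.45 (SE 0.18, adjusted p = 0.00136). Acacb, whose product makes malonyl-CoA at the mitochondrial surface, had 10.58 and 10.63 in LFD and 8.99 and 9.30 in HFD+As and fell by 1.46 (SE 0.20, adjusted p = 0.0021). In the single exposures Acacb had 10.00 and 10.79 in the LFD+As pools and 10.53 and 10.54 in the HFD pools, so the 2 HFD+As pools lay below the other 6. The ATP citrate lyase gene Acly fell by 1.19 and the cytosolic carboxylase gene Acaca by 0.62. Fatty acid synthase (Fasn) had 12.98 and 13.06 in LFD and 11.72 and 12.07 in HFD+As and fell by 1.13 (SE 0.17, adjusted p = 0.00356). The desaturase genes Scd1, Scd2 and Fads1 fell by 1.07, 1.34 and 0.86 and hold in every fit, as do Fasn, Acss2, Acacb and the 4 regulators that fell above. The elongase genes Elovl6, Elovl5, Elovl3 and Elovl1 fell by 0.99, 0.76, 0.68 and 0.47, and Elovl2 was at -0.11 without passing. Synthesis members called lower numbered 12 and 14 with LFD replicate 1 or 2 left out, 11 and 18 with HFD+As replicate 1 or 2 left out, and 16 with the span trend removed (then 1 higher). For the list as a whole the median was -0.20 in LFD+As and -0.03 in HFD, each against the same LFD pools.

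**Figure D4:**
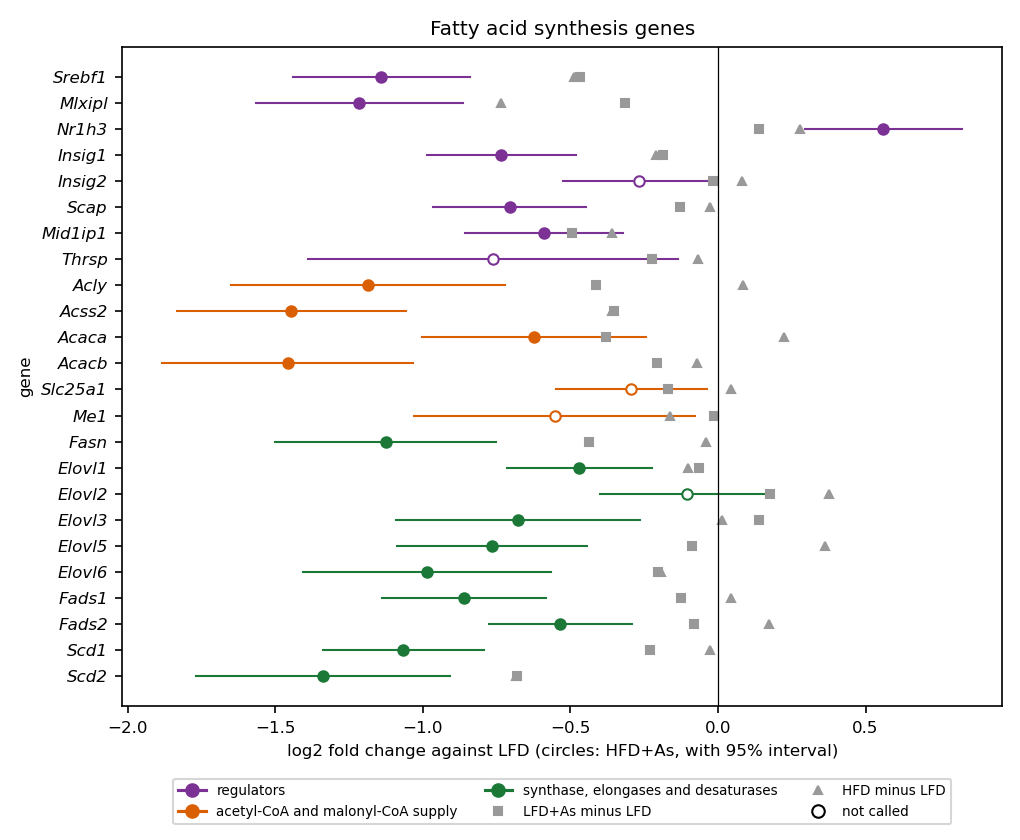
Log2 fold change against LFD (horizontal axis) of the 24 fatty acid synthesis genes (vertical axis), with circles and 95% intervals for HFD+As coloured by role, grey squares for LFD+As and grey triangles for HFD. Circles lie left of 0 for 23 genes and right of it for Nr1h3, and open circles mark genes that were not called.

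Cholesterol genes had 6 of 21 called lower, 0 called higher and a median of -0.32. Sc5d and Dhcr7 of the last steps fell by 0.61 and 0.50, and Fdps and Nsdhl by 0.48 and 0.39. The lipoprotein receptor gene Lrp1 fell by 0.82 and the sterol carrier gene Stard4 by 0.65. Sqle, the squalene epoxidase gene, missed the threshold at -0.39 (adjusted p = 0.0507). The calls of Lrp1 (-0.84), Sc5d (-0.57) and Dhcr7 (-0.47) were lost without LFD replicate 1, and those of Lrp1 (-0.73), Stard4 (-0.61), Sc5d (-0.55) and Dhcr7 (-0.53) without HFD+As replicate 1. Cholesterol members called lower numbered 1 and 4 with LFD replicate 1 or 2 left out, 1 and 5 with HFD+As replicate 1 or 2 left out, and 5 with the span trend removed.

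Genes of fatty acid oxidation did not share a direction: 4 of 34 were higher, 4 lower (a share near the 12.4% of all genes), and the median was 0.03. Angptl4, which encodes an inhibitor of lipoprotein lipase, had 7.75 and 7.67 in LFD and 8.88 and 8.59 in HFD+As and rose by 1.02 (SE 0.13, adjusted p = 0.00191). Ppard, the gene of the fatty acid receptor PPAR-delta, had 10.23 and 9.67 in LFD and 8.57 and 8.60 in HFD+As and fell by 1.36 (SE 0.20, adjusted p = 0.00292). Both hold in every fit. Ppard had 10.16 and 10.29 in the LFD+As pools and 10.40 and 9.78 in the HFD pools in the single exposures, and both HFD+As pools were below all 6 other arrays. Pdk4, which encodes a kinase that blocks pyruvate oxidation, fell by 1.04, and the coactivator gene Ppargc1a by 0.85. In mitochondrial oxidation 1 of 15 genes passed, Hadhb at 0.40, and the entry enzyme Cpt1a stood at -0.13. The omega-hydroxylase gene Cyp4a14 and Vnn1 rose by 0.65 and 0.63, and the thioesterase gene Acot2 fell by 0.70. The calls of Pdk4 (-0.66) and Ppargc1a (-0.65) were lost without LFD replicate 1, and those of Pdk4 (-1.26) and Ppargc1a (-0.88) without HFD+As replicate 1. Pdk4 (-0.82) lost its call without HFD+As replicate 2, as did Ppargc1a (-0.55) with the span trend removed. Oxidation members called numbered 1 higher and 1 lower with LFD replicate 1 left out, 1 and 4 with LFD replicate 2, 1 and 2 with HFD+As replicate 1, 2 and 3 with HFD+As replicate 2, and 5 and 3 with the span trend removed.

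Uptake and storage of lipid had 3 of 31 genes higher, against 3.59% of all genes, and 4 lower, a share near the 12.4% of all genes. The fatty acid binding protein gene Fabp2 had 10.29 and 10.01 in LFD and 11.41 and 11.74 in HFD+As and rose by 1.43 (SE 0.14, adjusted p = 0.000264), holding in every fit, with 11.12 and 11.14 in the LFD+As pools and 11.16 and 11.09 in the HFD pools in the single exposures. The droplet genes G0s2, an inhibitor of lipolysis, and Plin5 rose by 0.72 and 0.44, while Cidec stood at 0.39 and Plin2 at 0.07 without passing. In triglyceride assembly the acyltransferase gene Gpam fell by 0.79, and the phosphatase genes Lpin1 and Lpin2 by 0.96 and 0.66. Slc27a5, which activates fatty and bile acids, fell by 0.68. The calls of Lpin1 (-0.96), Gpam (-0.74) and G0s2 (0.72) were lost without LFD replicate 1, and those of Lpin1 (-0.96), Gpam (-0.83) and G0s2 (0.73) without LFD replicate 2. Lpin1 (-0.84), Gpam (-0.45) and G0s2 (0.71) lost their calls without HFD+As replicate 1, as did G0s2 (0.74) without HFD+As replicate 2. Gpam (-0.58) and G0s2 (0.58) lost their calls with the span trend removed. Uptake and storage members called numbered 1 higher and 0 lower with LFD replicate 1 left out, 1 and 1 with LFD replicate 2, 1 and 0 with HFD+As replicate 1, 1 and 4 with HFD+As replicate 2, and 3 and 2 with the span trend removed. Of 16 lipoprotein genes, Apoc4 and Apoa5 rose by 0.71 and 0.49, and Pltp and Abca1, which move phospholipid and cholesterol, fell by 0.86 and 0.50. These 2 falls are a share near the 12.4% of all genes. The calls of Apoa5 (0.39), Pltp (-0.75) and Abca1 (-0.52) were lost without LFD replicate 1, and those of Pltp (-0.97) and Abca1 (-0.48) without LFD replicate 2. Apoc4 (0.58), Apoa5 (0.43), Pltp (-1.09) and Abca1 (-0.36) lost their calls without HFD+As replicate 1, as did Pltp (-0.63) without HFD+As replicate 2. Abca1 (-0.23) lost its call with the span trend removed. Lipoprotein genes called numbered 1 higher and 0 lower with LFD replicate 1 left out, 2 and 0 with LFD replicate 2, 0 and 0 with HFD+As replicate 1, 2 and 2 with HFD+As replicate 2, and 2 and 1 with the span trend removed.

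Bile acid genes had 0 of 26 higher and 3 lower, a share near the 12.4% of all genes, and none of the 3 is a synthesis gene. Abcb11, the export pump that moves bile salts into bile, had 12.67 and 12.73 in LFD and 11.98 and 11.81 in HFD+As and fell by 0.80 (SE 0.13, adjusted p = 0.00494), holding in every fit. The sterol exporter gene Abcg8 fell by 0.60 and the receptor gene Nr5a2 by 0.47. Cyp7a1, the rate-limiting enzyme of bile acid synthesis, stood at -0.03 (adjusted p = 0.951), with 11.84 and 11.81 in LFD and 11.65 and 11.95 in HFD+As. The calls of Abcg8 (-0.42) and Nr5a2 (-0.44) were lost without LFD replicate 1, and that of Nr5a2 (-0.50) without LFD replicate 2. Abcg8 (-0.44) and Nr5a2 (-0.36) lost their calls without HFD+As replicate 1, as did Abcg8 (-0.48) and Nr5a2 (-0.21) with the span trend removed. Bile acid members called numbered 0 higher and 1 lower with LFD replicate 1 left out, 0 and 2 with LFD replicate 2, 0 and 1 with HFD+As replicate 1, 0 and 3 with HFD+As replicate 2, and 2 and 1 with the span trend removed, and 1 of the latter 2 higher genes is a synthesis gene.

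Of 17 insulin signalling genes 7 were lower and 1 higher, and 1 was lower with the span trend removed. Insr, the insulin receptor gene, fell by 0.70, and the adaptor gene Irs1, the kinase gene Gsk3b and the transcription factor genes Foxo1 and Foxo3 by 0.48, 0.66, 0.56 and 0.57. In all, 8 of 28 genes of insulin signalling and glucose output were lower and 2 higher. Pck1 of gluconeogenesis rose by 0.72, while G6pc, the last enzyme of glucose release, fell by 0.64. The sugar genes Pklr, the liver pyruvate kinase, Gckr, which restrains glucokinase, and the transporter gene Slc2a2 fell by 0.70, 0.54 and 0.46, 3 of 10 tested. None of these genes holds in every fit, and insulin and glucose members called lower numbered 0 and 2 with LFD replicate 1 or 2 left out, 0 and 10 with HFD+As replicate 1 or 2 left out, and 1 with the span trend removed. The calls of Insr (-0.73), Gsk3b (-0.59), G6pc (-0.89), Pck1 (0.66), Pklr (-0.74), Gckr (-0.53) and Slc2a2 (-0.51) were lost without LFD replicate 1, and those of G6pc (-0.39), Pck1 (0.77), Pklr (-0.66), Gckr (-0.55) and Slc2a2 (-0.42) without LFD replicate 2. Insr (-0.55), Gsk3b (-0.46), G6pc (-0.46), Pck1 (0.86), Pklr (-0.56), Gckr (-0.33) and Slc2a2 (-0.48) lost their calls without HFD+As replicate 1, as did Pck1 (0.58) and Slc2a2 (-0.45) without HFD+As replicate 2. Gsk3b (-0.38), G6pc (-0.60), Pck1 (0.71), Gckr (-0.40) and Slc2a2 (-0.32) lost their calls with the span trend removed. Sugar genes called numbered 0 higher and 0 lower with LFD replicate 1 left out, 0 and 0 with LFD replicate 2, 0 and 0 with HFD+As replicate 1, 0 and 3 with HFD+As replicate 2, and 0 and 1 with the span trend removed.

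Amino acid catabolism was lower in 10 of 41 genes, with 0 higher and a median of -0.30. The first step of histidine breakdown, Hal, had 13.08 and 13.00 in LFD and 12.14 and 12.07 in HFD+As and fell by 0.94 (SE 0.13, adjusted p = 0.00292), and Amdhd1 of the same pathway had 11.66 and 11.57 in LFD and 10.83 and 10.68 in HFD+As and fell by 0.86 (SE 0.14, adjusted p = 0.00494). Uroc1, the enzyme between them, fell by 0.71. Prodh, the proline dehydrogenase gene, had 11.51 and 11.41 in LFD and 10.42 and 10.62 in HFD+As and fell by 0.94 (SE 0.15, adjusted p = 0.00367), and Aldh4a1, the next enzyme of proline breakdown, fell by 0.61. Hal, Amdhd1 and Prodh hold in every fit. Got1, Gpt2, Cth and Kynu fell by 0.76, 0.57, 0.52 and 0.46, and Cps1, the entry enzyme of the urea cycle, by 0.39. The calls of Got1 (-0.81) and Cps1 (-0.39) were lost without LFD replicate 1, and those of Got1 (-0.71) and Cps1 (-0.38) without LFD replicate 2. Got1 (-0.48) and Cps1 (-0.31) lost their calls without HFD+As replicate 1, as did Got1 (-0.63) and Cps1 (-0.13) with the span trend removed. The call of Cps1 was also lost without either LFD+As array, at an unchanged difference. Catabolism members called lower numbered 3 and 5 with LFD replicate 1 or 2 left out, 4 and 15 with HFD+As replicate 1 or 2 left out, and 5 with the span trend removed (then 2 higher).

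Amino acid transporters had 5 of 14 lower and 0 higher (median -0.35). The glutamine transporter gene Slc38a3 had 13.54 and 13.56 in LFD and 12.80 and 12.93 in HFD+As and fell by 0.68 (SE 0.12, adjusted p = 0.00496), holding in every fit. The cationic transporter gene Slc7a2 fell by 0.90, and Slc43a1, Slc7a8 and Slc3a2, carriers of neutral amino acids or their partner chain, by 0.64, 0.50 and 0.40. The calls of Slc7a2 (-0.91), Slc43a1 (-0.57) and Slc7a8 (-0.43) were lost without LFD replicate 1, and those of Slc7a2 (-0.89) and Slc7a8 (-0.57) without LFD replicate 2. Slc7a2 (-0.66) and Slc7a8 (-0.44) lost their calls without HFD+As replicate 1, as did Slc7a8 (-0.29) with the span trend removed. Transporter genes called lower numbered 1 and 2 with LFD replicate 1 or 2 left out, 2 and 6 with HFD+As replicate 1 or 2 left out, and 3 with the span trend removed.

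Of 5 genes of arsenic metabolism and entry, 1 was called. As3mt, the arsenite methyltransferase gene, had 10.76 and 10.55 in LFD and 10.28 and 10.71 in HFD+As, a difference of -0.16 (adjusted p = 0.547), and Gsto1 and Pnp, linked to the reduction of arsenic species, stood at -0.09 and -0.05 without passing. Aqp9, a channel through which arsenite enters hepatocytes, fell by 0.55. In one-carbon metabolism, which supplies the methyl groups, Aldh1l1, Sardh, Mthfd1 and Gamt fell by 0.78, 0.50, 0.44 and 0.41, which makes 5 of 20 genes lower and 0 higher over both roles. The calls of Aqp9 (-0.57), Sardh (-0.44) and Mthfd1 (-0.34) were lost without LFD replicate 1, and those of Aqp9 (-0.54), Sardh (-0.56) and Mthfd1 (-0.54) without LFD replicate 2. Aqp9 (-0.40), Aldh1l1 (-0.71), Sardh (-0.56) and Mthfd1 (-0.35) lost their calls without HFD+As replicate 1, as did Sardh (-0.43) without HFD+As replicate 2. Aqp9 (-0.35), Sardh (-0.29) and Mthfd1 (-0.22) lost their calls with the span trend removed. Members called lower numbered 1 and 1 with LFD replicate 1 or 2 left out, 0 and 3 with HFD+As replicate 1 or 2 left out, and 2 with the span trend removed (then 1 higher).

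Nr1i3, the gene of the drug-sensing receptor CAR, was the 1 higher gene of 54 in drug metabolism. It had 9.73 and 9.32 in LFD and 10.37 and 10.57 in HFD+As and rose by 0.95 (SE 0.16, adjusted p = 0.00531), holding in every fit. Of the lower genes, 8 in all beside 12.4% of all genes, Cyp2b9, a P450 gene that is higher in females, had 9.91 and 8.22 in LFD and 6.54 and 6.82 in HFD+As and fell by 2.38 (SE 0.40, adjusted p = 0.00494). Its LFD pools were far apart, and the single exposures had low signals too, with 6.21 and 7.20 in the LFD+As pools and 6.82 and 6.88 in the HFD pools. Of the pools outside LFD only that at 7.20 lay above 6.97, the mean signal above which genes were tested. Cyp2b9 thus passed this filter through LFD, where it was high, so its fall is given as a description. Cyp2c23 and Cyp2d22 fell by 0.94 and 0.67, and the conjugation and hydrolysis genes Ces3b, Sult1c2, Ugt2b1, Fmo5 and Ugt2a3 by 0.42 to 0.65. The call of Cyp2c23 (-0.95) was lost without LFD replicate 1, and that of Cyp2c23 (-0.94) without LFD replicate 2. Cyp2b9 (-2.24) and Cyp2d22 (-0.62) lost their calls without HFD+As replicate 1, as did Cyp2c23 (-0.74) without HFD+As replicate 2. Drug metabolism members called numbered 1 higher and 2 lower with LFD replicate 1 left out, 1 and 4 with LFD replicate 2, 1 and 1 with HFD+As replicate 1, 1 and 8 with HFD+As replicate 2, and 2 and 6 with the span trend removed. Probes of P450 and transferase families may bind transcripts of close relatives.

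Of 10 genes of the growth hormone receptor and its pathway 6 were lower, against 12.4% of all genes, and 3 with the span trend removed. Socs2, a feedback inhibitor of the receptor, had 10.14 and 10.27 in LFD and 8.69 and 8.47 in HFD+As and fell by 1.62 (SE 0.19, adjusted p = 0.000814), holding in every fit; the LFD+As pools had a lower mean and overlapped HFD+As, with 8.51 and 7.82. Cish, a second feedback inhibitor, fell by 1.03, the transcription factor gene Onecut1 by 1.43 and Stat5b by 0.75, and the receptor gene Ghr and Jak2 by 0.41 and 0.39. Igf1 stood at -0.10 and did not pass. Of 14 sex-biased genes tested, Slc22a7 passed, higher by 0.56. The calls of Onecut1 (-1.62), Cish (-0.95) and Stat5b (-0.69) were lost without LFD replicate 1, and those of Onecut1 (-1.24) and Cish (-1.11) without LFD replicate 2. Onecut1 (-0.64), Cish (-0.54) and Stat5b (-0.82) lost their calls without HFD+As replicate 1, as did Onecut1 (-1.29) with the span trend removed. Of the 29 genes of this list with the IGF axis and the sex-biased genes, those called numbered 0 higher and 1 lower with LFD replicate 1 left out, 0 and 2 with LFD replicate 2, 0 and 1 with HFD+As replicate 1, 2 and 4 with HFD+As replicate 2, and 0 and 3 with the span trend removed. In Onecut1 and Cish, HFD+As replicate 1 was far below replicate 2, with 8.62 and 10.20 for Onecut1 and 7.37 and 8.36 for Cish.

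Retinoid genes beside Cyp26a1 included Retsat, the retinol saturase gene, which had 11.96 and 11.74 in LFD and 12.66 and 12.82 in HFD+As and rose by 0.90 (SE 0.14, adjusted p = 0.00381); both hold in every fit. The receptor gene Rarb and the reductase genes Dhrs3 and Rdh16 fell by 0.65, 0.57 and 0.48, so that 4 of 17 were lower and 1 higher. The calls of Rarb (-0.55) and Dhrs3 (-0.59) were lost without LFD replicate 1, and those of Rarb (-0.74) and Dhrs3 (-0.55) without LFD replicate 2. Rarb (-0.68) and Dhrs3 (-0.62) lost their calls without HFD+As replicate 1, as did Rarb (-0.62) and Dhrs3 (-0.51) without HFD+As replicate 2. Rarb (-0.34) and Dhrs3 (-0.41) lost their calls with the span trend removed. Retinoid members called numbered 1 higher and 1 lower with LFD replicate 1 left out, 1 and 1 with LFD replicate 2, 1 and 1 with HFD+As replicate 1, 1 and 3 with HFD+As replicate 2, and 1 and 1 with the span trend removed. Genes of liver zonation and the Wnt pathway had 7 of 18 lower and 0 higher (median -0.34). They included both sides of the lobule: Rhbg, Lgr5, Znrf3 and Rnf43 of the Wnt and pericentral side fell by 0.85, 0.71, 0.57 and 0.47, and the periportal genes Aldh1b1 and Pigr by 0.72 and 0.68. The calls of Rhbg (-0.79), Lgr5 (-0.58), Aldh1b1 (-0.56) and Pigr (-0.64) were lost without LFD replicate 1, and that of Pigr (-0.73) without LFD replicate 2. Rhbg (-0.62), Lgr5 (-0.66), Aldh1b1 (-0.62) and Pigr (-0.71) lost their calls without HFD+As replicate 1, as did Pigr (-0.65) without HFD+As replicate 2. Zonation members called lower numbered 0 and 5 with LFD replicate 1 or 2 left out, 0 and 5 with HFD+As replicate 1 or 2 left out, and 4 with the span trend removed. Of 14 clock genes, Nr1d1, Bhlhe40 and Rora fell by 0.98, 0.57 and 0.54. The calls of Nr1d1 (-1.0), Bhlhe40 (-0.75) and Rora (-0.53) were lost without LFD replicate 1, and those of Nr1d1 (-0.96), Bhlhe40 (-0.39) and Rora (-0.56) without LFD replicate 2. Nr1d1 (-1.15), Bhlhe40 (-0.41) and Rora (-0.46) lost their calls without HFD+As replicate 1, as did Nr1d1 (-0.81) without HFD+As replicate 2. Nr1d1 (-0.97), Bhlhe40 (-0.58) and Rora (-0.24) lost their calls with the span trend removed. Clock members called numbered 1 higher and 0 lower with LFD replicate 1 left out, 0 and 0 with LFD replicate 2, 0 and 0 with HFD+As replicate 1, 0 and 2 with HFD+As replicate 2, and 1 and 0 with the span trend removed.

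Acute phase genes were raised in part, with 6 of 30 higher and 0 lower (median 0.14). Lcn2, which binds bacterial iron carriers, had 9.05 and 10.28 in LFD and 11.57 and 12.06 in HFD+As and rose by 2.15 (SE 0.37, adjusted p = 0.00518). Serum amyloid A genes were far apart in the LFD pools: Saa1 had 5.04 and 7.51 in LFD and 9.07 and 8.88 in HFD+As and rose by 2.70 (SE 0.57, adjusted p = 0.00971), and Saa3 had 7.34 and 7.50 in LFD and 9.61 and 9.09 in HFD+As and rose by 1.93 (SE 0.35, adjusted p = 0.00603). Apcs, Steap4 and Fgl1 rose by 0.92, 0.88 and 0.70. The fibrinogen chains Fga, Fgb and Fgg lay between -0.07 and -0.05, and the signalling genes Stat3 and Socs3 at 0.02 and 0.25, none of which passed. The calls of Saa1 (1.47), Lcn2 (1.53), Saa3 (1.85) and Apcs (1.10) were lost without LFD replicate 1, and that of Apcs (0.73) without LFD replicate 2. Saa1 (2.61), Saa3 (1.67) and Apcs (1.08) lost their calls without HFD+As replicate 1, as did Apcs (0.75) without HFD+As replicate 2. Apcs (0.78) lost its call with the span trend removed. Acute phase members called higher numbered 0 and 5 with LFD replicate 1 or 2 left out, 2 and 3 with HFD+As replicate 1 or 2 left out, and 7 with the span trend removed, and none holds in every fit. An intensity trend with robust variances gave 2 higher and 1 lower, and quantile normalization gave 4 higher and 1 lower. Against the same LFD pools the list median was 0.20 in LFD+As and 0.48 in HFD. For Lcn2 the HFD pools (12.49 and 12.97) were above both HFD+As pools.

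Of 16 chemokine and cytokine genes 5 were higher and 0 lower (median 0.25). Cxcl1, which attracts neutrophils, had 8.02 and 8.40 in LFD and 9.39 and 9.18 in HFD+As and rose by 1.08 (SE 0.17, adjusted p = 0.00345), holding in every fit, and the HFD pools reached 9.42 and 9.72. The macrophage chemokine genes Ccl6 and Ccl3 rose by 1.06 and 0.70, and Il1a and Mif by 0.53 and 0.45. The neutrophil marker S100a9 rose by 0.81 at low signal, with 6.63 and 6.95 in LFD and 7.62 and 7.57 in HFD+As, while the markers Csf3r and Camp stood at 0.05 and 0.13 without passing. The part of neutrophil number in these genes was not tested. The calls of Ccl6 (1.16), Ccl3 (0.82), Il1a (0.58) and S100a9 (0.65) were lost without LFD replicate 1, and those of Ccl6 (0.95), Ccl3 (0.58) and Il1a (0.49) without LFD replicate 2. Ccl6 (0.62), Ccl3 (0.54), Il1a (0.45) and S100a9 (0.78) lost their calls without HFD+As replicate 1. Chemokine and cytokine genes called higher numbered 1 and 1 with LFD replicate 1 or 2 left out, 1 and 7 with HFD+As replicate 1 or 2 left out, and 4 with the span trend removed.

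Of 26 interferon-stimulated genes 8 were called lower and 0 higher, with a median of -0.33. The GTPase gene Gbp11 had 9.07 and 9.13 in LFD and 7.62 and 7.83 in HFD+As and fell by 1.37 (SE 0.16, adjusted p = 0.000814), holding in every fit. Iigp1, Gbp7 and Gbp4 of the same class fell by 0.70, 0.59 and 0.58. The antiviral genes Rsad2, Oasl2, Ddx58 and Oasl1 fell by 0.98, 0.67, 0.56 and 0.42, whereas Stat2 and Irf9, which carry the signal, stood at -0.20 and 0.03 without passing. The calls of Rsad2 (-0.75), Iigp1 (-0.59) and Oasl2 (-0.55) were lost without LFD replicate 1, and those of Iigp1 (-0.81) and Oasl2 (-0.80) without LFD replicate 2. Rsad2 (-1.06), Iigp1 (-0.85) and Oasl2 (-0.69) lost their calls without HFD+As replicate 1, as did Iigp1 (-0.54) and Oasl2 (-0.65) without HFD+As replicate 2. Interferon members called lower numbered 1 and 4 with LFD replicate 1 or 2 left out, 2 and 4 with HFD+As replicate 1 or 2 left out, and 6 with the span trend removed. The natural killer ligand gene Clec2h fell by 1.05 beside Raet1d. The call of Clec2h (-0.80) was lost without LFD replicate 1, and that of Clec2h (-0.94) without HFD+As replicate 1. Complement and coagulation genes had 4 of 31 lower, a share near the 12.4% of all genes, and 0 higher, the largest being Masp1 at -0.55 and F5 at -0.52. The calls of Masp1 (-0.56) and F5 (-0.53) were lost without LFD replicate 1, and those of Masp1 (-0.54) and F5 (-0.50) without LFD replicate 2. Masp1 (-0.36) and F5 (-0.40) lost their calls without HFD+As replicate 1, as did Masp1 (-0.33) and F5 (-0.29) with the span trend removed. Complement and coagulation genes called lower numbered 0 and 0 with LFD replicate 1 or 2 left out, 0 and 3 with HFD+As replicate 1 or 2 left out, and 1 with the span trend removed.

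Of 16 cell cycle genes 3 were lower and 0 higher. Cdk6, a G1 kinase gene, had 9.68 and 9.60 in LFD and 8.67 and 8.80 in HFD+As and fell by 0.90 (SE 0.12, adjusted p = 0.00191), holding in every fit, and its partner cyclin gene Ccnd1 fell by 0.74 and the replication gene Mcm6 by 0.43. The calls of Ccnd1 (-0.67) and Mcm6 (-0.41) were lost without LFD replicate 1, and that of Mcm6 (-0.44) without LFD replicate 2. Mcm6 (-0.35) lost its call without HFD+As replicate 1, as did Mcm6 (-0.50) without HFD+As replicate 2. Mcm6 (-0.29) lost its call with the span trend removed. Cell cycle genes called lower numbered 1 and 2 with LFD replicate 1 or 2 left out, 3 and 2 with HFD+As replicate 1 or 2 left out, and 2 with the span trend removed. Of 13 p53 targets 1 passed, Gadd45b, higher by 0.47, and Mdm2 stood at -0.29. The call of Gadd45b (0.54) was lost without LFD replicate 1, and that of Gadd45b (0.41) without LFD replicate 2. Gadd45b (0.44) lost its call without HFD+As replicate 1. The p53 targets called numbered 0 higher and 0 lower with LFD replicate 1 left out, 0 and 0 with LFD replicate 2, 0 and 0 with HFD+As replicate 1, 1 and 1 with HFD+As replicate 2, and 1 and 0 with the span trend removed.

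Coactivators and chromatin remodellers were the list with the largest share of lower genes, 17 of 18, and a median of -0.65. Like the other lists, it was chosen with earlier results of these data known, so its rank is no test. These genes are long, with a median span of 112 kb. Arid5b, a DNA-binding cofactor of a histone demethylase, had 11.01 and 11.14 in LFD and 9.22 and 10.07 in HFD+As and fell by 1.43 (SE 0.20, adjusted p = 0.00292), and it is the 1 member that holds in every fit. The histone acetylase genes Ep300 and Crebbp fell by 0.87 and 0.77, the methylase genes Kmt2d, Kmt2a and Kmt2c by 0.89, 0.72 and 0.64, and the remodeller gene Arid1a by 0.83. The nuclear receptor coactivator genes Ncoa1, Ncoa2 and Ncoa3 fell by 0.56 to 0.65, and the mediator gene Med1 was the 1 that did not pass (-0.31). The calls of Kmt2d (-0.84), Ep300 (-0.78) and Arid1a (-0.79) were lost without LFD replicate 1, and those of Kmt2d (-0.75), Ep300 (-0.68) and Arid1a (-0.72) without HFD+As replicate 1. Cofactor members called lower numbered 4 and 15 with LFD replicate 1 or 2 left out, 1 and 17 with HFD+As replicate 1 or 2 left out, and 9 with the span trend removed, and the median was -0.38 with the trend removed.

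Genes of protein synthesis were higher as groups. Cytosolic ribosomal protein genes had 38 of 57 called higher, 0 lower and all 57 above 0, with a median of 0.51. Rps12 of the small subunit had 10.01 and 9.87 in LFD and 10.85 and 10.80 in HFD+As and rose by 0.88 (SE 0.14, adjusted p = 0.00397), and Rpl24 of the large subunit had 10.00 and 9.74 in LFD and 10.75 and 10.57 in HFD+As and rose by 0.79 (SE 0.12, adjusted p = 0.00363). Rpl5 and Rpl36 rose by 0.76 and 0.74, and these 4 genes hold in every fit. The largest rise was that of Rpl26 at 0.95. Ribosomal members called higher numbered 21 and 14 with LFD replicate 1 or 2 left out, 6 and 31 with HFD+As replicate 1 or 2 left out, and 30 with the span trend removed. The list median was 0.43 with the span trend removed. Ribosomal protein genes have many processed pseudogenes, so probes may share targets. Against the same LFD pools the median was 0.12 in LFD+As and 0.27 in HFD.

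Mitochondrial ribosomal protein genes had 19 of 76 higher and 0 lower, 66 above 0 and a median of 0.21. Mrpl54 had 9.18 and 8.68 in LFD and 9.92 and 9.85 in HFD+As and rose by 0.96 (SE 0.15, adjusted p = 0.00394), holding in every fit, and Mrpl52, Mrpl20 and Mrpl42 rose by 0.96, 0.94 and 0.93. The call of Mrpl52 (0.78) was lost without LFD replicate 2, and those of Mrpl52 (0.54), Mrpl20 (0.93) and Mrpl42 (0.94) without HFD+As replicate 1. Members called higher numbered 14 and 5 with LFD replicate 1 or 2 left out, 1 and 19 with HFD+As replicate 1 or 2 left out, and 21 with the span trend removed.

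Respiratory chain and ATP synthase genes had 18 of 76 higher and 1 lower (median 0.24). Most were small subunits of complex I, the NADH dehydrogenase, with 12 of 34 higher (median 0.36), among them Ndufs6 and Ndufb8 at 0.65 and 0.63. Atp5l of the ATP synthase had 9.77 and 9.54 in LFD and 10.62 and 10.43 in HFD+As and rose by 0.87 (SE 0.14, adjusted p = 0.00407), holding in every fit, and Uqcr10 of complex III rose by 0.66. None of the 12 complex IV genes tested passed. Sdha, the flavoprotein of complex II, went the other way and fell by 0.55. The call of Ndufs6 (0.75) was lost without LFD replicate 1, and those of Uqcr10 (0.61), Ndufs6 (0.54) and Ndufb8 (0.47) without LFD replicate 2. Uqcr10 (0.58), Ndufs6 (0.37) and Ndufb8 (0.66) lost their calls without HFD+As replicate 1. Respiratory members called higher numbered 11 and 1 with LFD replicate 1 or 2 left out, 1 and 20 with HFD+As replicate 1 or 2 left out, and 19 with the span trend removed (then 1 lower).

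Small nucleolar RNAs, which guide modification of ribosomal RNA and mostly lie in introns of other genes, had 19 of 38 higher and 0 lower (median 0.59). Snord57 had 7.90 and 7.89 in LFD and 10.31 and 9.18 in HFD+As and rose by 1.85 (SE 0.24, adjusted p = 0.00196). Snora74a and Snord35b rose by 1.05 and 0.90, and these 3 hold in every fit. Snord118, which acts in the processing of ribosomal RNA, had 8.57 and 7.68 in LFD and 9.39 and 10.25 in HFD+As and rose by 1.70 (SE 0.31, adjusted p = 0.00589). The call of Snord118 (1.25) was lost without LFD replicate 2. Small nucleolar RNAs called higher numbered 10 and 5 with LFD replicate 1 or 2 left out, 11 and 13 with HFD+As replicate 1 or 2 left out, and 9 with the span trend removed. The list median was -0.16 in LFD+As and 0.26 in HFD, each against the same LFD pools. The median deviation from a gene's mean was -0.11 and 0.35 in the HFD pools and 0.19 and 0.48 in HFD+As. HFD replicate 2 thus lay above HFD+As replicate 1. Intron signal of the host genes could not be told apart from the small RNAs on these arrays.

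**Figure D5:**
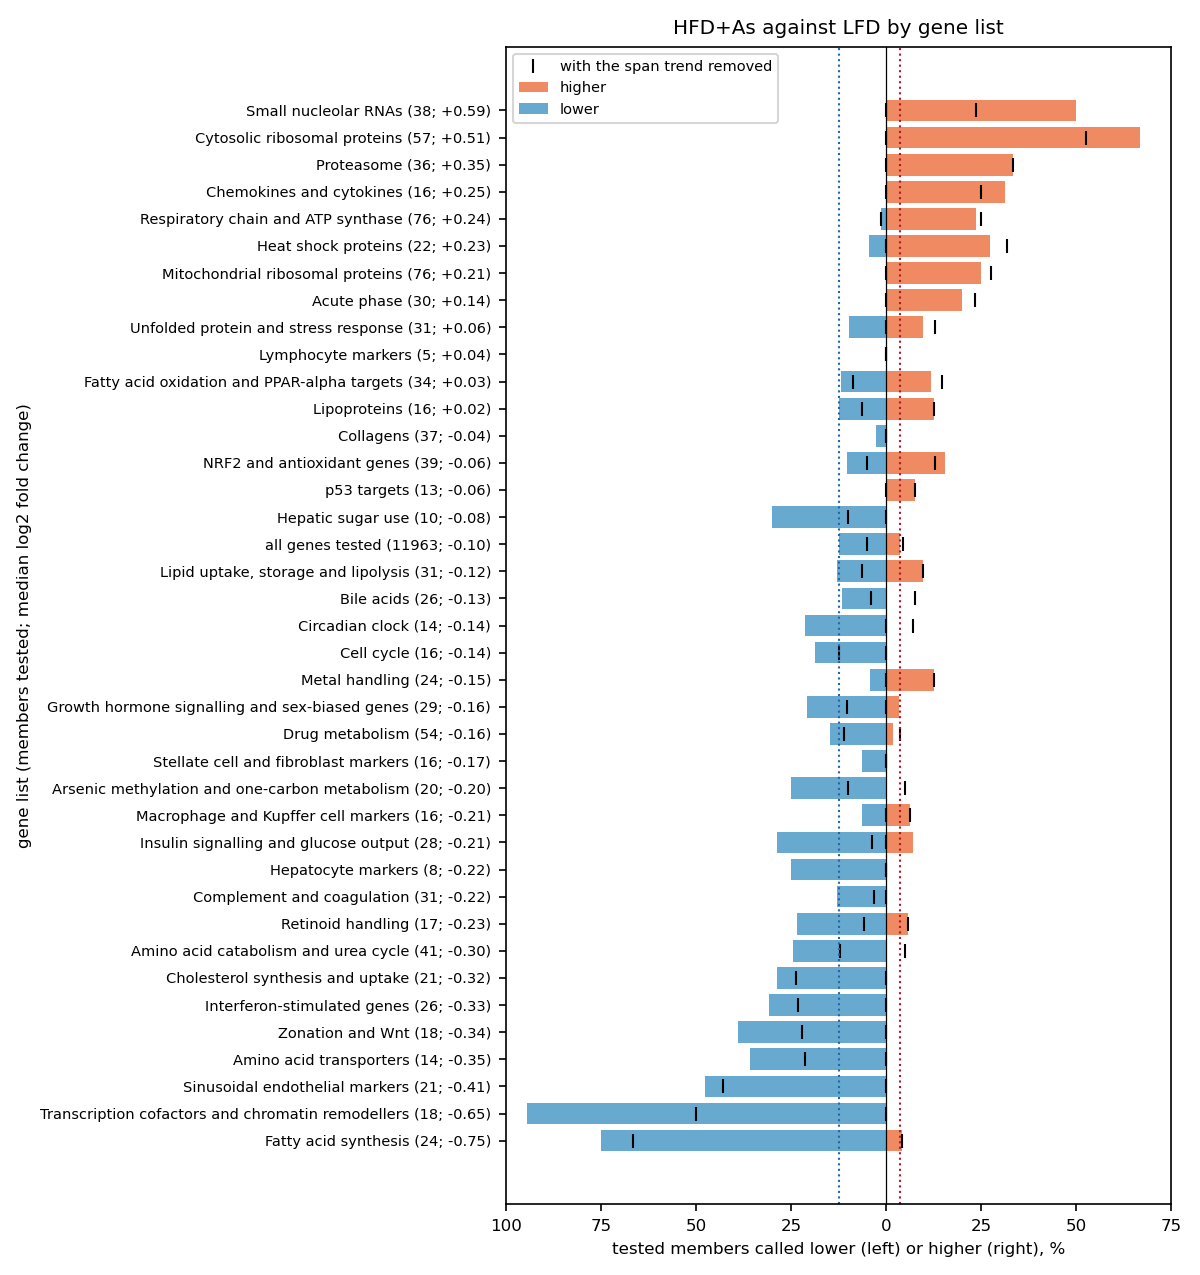
Percent of the tested members of each gene list called lower (left) or higher (right) in HFD+As against LFD (horizontal axis), with lists of at least 5 tested genes ordered by median log2 fold change (vertical axis). Black ticks give the percent with the span trend removed, and dotted lines mark the 12.4% and 3.59% of all genes tested.

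Of the markers of other liver cells, those of the sinusoidal endothelium had the most calls. Sinusoidal endothelial markers had 10 of 21 lower, against 12.4% of all genes, and 0 higher (median -0.41). These genes are long, with a median span of 42.9 kb against 21.4 kb over all genes tested. Their median difference was -0.28 with the span trend removed. The mean signal of these markers was 9.41 and 9.24 in the LFD pools and 9.20 and 9.34 in the LFD+As pools. It was 9.45 and 9.10 in the HFD pools and 8.89 and 8.94 in the HFD+As pools. Stab2, a scavenger receptor of these cells, had 9.55 and 9.46 in LFD and 8.60 and 8.59 in HFD+As and fell by 0.91 (SE 0.15, adjusted p = 0.0042), holding in every fit. The nuclease gene Dnase1l3, Ehd3 and the coreceptor gene Eng fell by 0.90, 0.87 and 0.79, while Lyve1 and Clec4g, also markers of these cells, stood at -0.03 and 0.22 without passing. The calls of Dnase1l3 (-0.82), Ehd3 (-0.83) and Eng (-0.74) were lost without LFD replicate 1, and that of Eng (-0.85) without LFD replicate 2. Dnase1l3 (-0.92), Ehd3 (-0.74) and Eng (-0.59) lost their calls without HFD+As replicate 1. Endothelial markers called lower numbered 1 and 7 with LFD replicate 1 or 2 left out, 1 and 6 with HFD+As replicate 1 or 2 left out, and 9 with the span trend removed.

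Macrophage and Kupffer cell markers had 1 of 16 higher (Marco, 0.54) and 1 lower (Csf1r, -0.66), the latter below the 12.4% of all genes, with a mean signal of 9.50 and 9.40 in the LFD pools, 9.28 and 9.53 in the LFD+As pools, 9.76 and 9.61 in the HFD pools and 9.40 and 9.23 in the HFD+As pools. The call of Csf1r (-0.57) was lost without LFD replicate 1, and those of Marco (0.46) and Csf1r (-0.75) without LFD replicate 2. Marco (0.53) and Csf1r (-0.69) lost their calls without HFD+As replicate 1, as did Csf1r (-0.63) without HFD+As replicate 2. Csf1r (-0.53) lost its call with the span trend removed. Of 16 stellate cell markers Reln passed, lower by 0.53 on the log2 scale, and of 37 collagen genes Col18a1 passed, with a difference of -0.63. The calls of Reln (-0.50) and Col18a1 (-0.56) were lost without LFD replicate 1, and that of Reln (-0.56) without LFD replicate 2. Col18a1 (-0.57) lost its call without HFD+As replicate 1, as did Reln (-0.30) without HFD+As replicate 2. Reln (-0.22) and Col18a1 (-0.37) lost their calls with the span trend removed. Hepatocyte markers had 2 of 8 lower, Foxa2 (-0.45) and Cps1 (-0.39). The call of Foxa2 (-0.34) was lost without LFD replicate 1, and that of Foxa2 (-0.55) without LFD replicate 2. Foxa2 (-0.26) lost its call without HFD+As replicate 1, as did Foxa2 (-0.49) with the span trend removed. The call of Foxa2 was also lost without either LFD+As array. With the span trend removed 1 macrophage marker was higher, and 0 stellate cell, collagen or hepatocyte genes were called. None of the 2 cholangiocyte, 5 lymphocyte, 3 erythroid, 1 adipocyte and 4 exocrine pancreas markers tested was called. The part of these cell types in the differences above was not tested.

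The combined exposure was then set beside the single ones. Against HFD, 434 genes were called in HFD+As (3.63%), 45 higher (0.376%) and 389 lower (3.25%), and against LFD+As 1227 (10.3%), 218 higher (1.82%) and 1009 lower (8.43%). These comparisons share the HFD+As pools with the comparison above. With 1 array left out they ranged from 24 to 1121 genes and from 17 to 1481 genes. After removal of the span trend 45 genes were called against HFD (24 higher, 21 lower) and 69 against LFD+As (32 higher, 37 lower), so that lower calls no longer made up most of them by a wide margin. With no filter on dim genes the counts were 29 and 165. Departure from the sum of both single exposures was tested as the interaction, a contrast orthogonal to the difference between HFD+As and LFD. No gene passed (0 of 11963, 0.0%; smallest adjusted p = 0.0591), and 1659 had an unadjusted p under 0.05. Among the 1909 called genes 585 did, and among the 126 that hold in every fit 56 did, 46 of them with a combined difference larger than the sum and 10 with a smaller one. Of the 1659 genes over all tested, 1396 had a larger combined difference and 263 a smaller one, so this split is not particular to the 126. With the span trend removed, limma gave 0 calls for the interaction and 1175 genes with an unadjusted p under 0.05. The median interaction over all genes was -0.122 as deposited and 0.003 with that trend removed. The split was not counted with the trend removed.

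Named genes showed both patterns, at unadjusted p-values only. For Ppard the combined difference was -1.36 and the interaction -1.78 (limma, unadjusted p = 2.02e-05), and for Chrna4 the interaction was -1.75 (unadjusted p = 0.000111). Scd1 had 13.75 and 14.04 in the LFD+As pools and 14.12 and 14.07 in the HFD pools beside 14.12 and 14.12 in LFD and 13.14 and 12.97 in HFD+As, with an interaction of -0.81 (unadjusted p = 0.000516), so the HFD+As pools were lower than all others. Socs2 showed the reverse, with the mean of LFD+As below that of HFD+As and an interaction of 1.30 (unadjusted p = 0.000241). Lcn2 and Saa1 had interactions of -3.22 and -4.39 (unadjusted p = 2.99e-05 and 9.97e-05), and in both genes the means of LFD+As and of HFD were above that of HFD+As. Hspb1 stood near the sum, with an interaction of 0.09 (SE 0.28), as did Scd2 (0.03, SE 0.28) and Arid5b (0.02, SE 0.29).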

How the data were processed

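Liver RNA was hybridized to 8 arrays (Affymetrix Mouse Gene 1.0 ST), 2 per group, each with a pool of 5 mice by the labels' protocols. The deposited values are log2 signals, for which the submitters' processing notes name Expression Console 1.0 of Affymetrix; background correction, normalization and summary method are not given in the sources used here. They were used as deposited, and no detection calls were used. Symbols came from the platform annotation (21789 clusters with 1 symbol, 1621 with several, 12146 with none), and 21766 clusters matched RefSeq GRCm38.p6, which gave the spans. The cluster with the highest mean stood for its gene, and the 60% of genes with the highest means (above 6.97) were tested.

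Group means were fitted to all 8 arrays with limma 3.58.1 in R 4.3.3 (4 residual and 9.32 prior degrees of freedom, median residual SD 0.122, median SE of a difference 0.127). P-values were adjusted by Benjamini-Hochberg over all genes tested at a threshold of 0.05. The fit was tested on simulated data. The number of arrays limits the precision.

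Members and gene lists were chosen with earlier results of these data known. Named genes were the 15 largest rises and 15 largest falls that hold in every fit, up to 4 called members of each list (those that hold first; where none was called, up to 2 with the smallest unadjusted p), and Cidec, Sqle, Scd1, Cyp7a1, As3mt, Nqo1, Hmox1, Mt2 and Mt1. Predicted genes were counted only. Other genes were named after their values were seen. Alternatives were the 4 arrays alone, other filters on dim genes, quantile normalization, median centring, removal of the span trend (a smooth curve of each array's deviations on log span), a replicate block, an intensity trend with robust variances, the mean of all clusters of a gene, and each array left out.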

Additional observations from a re-analysis of the deposited data

How the results depend on the processing

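Of the named genes' values under the alternatives, 2255 kept their direction and side of the threshold, 370 lost the call, 12 gained it and 14 changed sign. Those that changed sign belonged to genes that were not called: Krt7 (quantile normalization 0.0126, median centring 0.0109, span trend removed 0.0712, -0.0333 to 0.0234 with 1 array left out, with the sign changed without LFD replicate 2 and, at 0.0153, without HFD+As replicate 1), Cd79b (-0.025 without HFD+As replicate 1, to 0.357 without HFD+As replicate 2), Cd3g (-0.152 without LFD replicate 2 and -0.131 without HFD+As replicate 1, to 0.335 without LFD replicate 1), Plin1 (quantile normalization 0.002, span trend removed 0.0256, -0.0735 to 0.0247 with 1 array left out, the latter without LFD replicate 2), As3mt (-0.377 to 0.0556, the latter without HFD+As replicate 1) and Cyp7a1 (span trend removed 0.0079, -0.177 to 0.122 with 1 array left out, the latter without HFD+As replicate 1). The number of genes called against LFD was 1084 with no filter (274 higher, 810 lower), 1013 with median centring (724 lower), 1132 with the span trend removed (589 lower) and 206 to 2050 with 1 array left out (67 to 443 higher, 139 to 1607 lower). Lower calls made up 77.5% as reported, 70.4% with quantile normalization, 71.5% with median centring and 52.0% with the span trend removed. Against HFD it was 29 with no filter, 104 with quantile normalization, 125 with median centring, 45 with the span trend removed, 230 with the replicate block, 751 with the intensity trend and 24 to 1121 with 1 array left out. Against LFD+As it was 165 with no filter, 214 with median centring, 69 with the span trend removed and 17 to 1481 with 1 array left out. The interaction gave 6 calls in the brightest 40% of genes, 17 with the intensity trend and 0 to 23 with 1 array left out. The cause of these changes was not tested. Deviations of same-numbered arrays from their group means had correlations from -0.217 to 0.180, with both signs. Such correlations cannot show whether same-numbered pools were handled together. The replicate block gave 1691 calls against LFD. With 2 pools per group a single array decides many calls, and dim signals were not shown to lie above background.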

Other observations

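The 5860 transcript clusters without a single gene symbol that passed the same filter on mean signal were fitted apart from the genes in HFD+As against LFD. With limma, 0 of them had an adjusted p under 0.05, and 1284 had an unadjusted p under 0.05.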
